A study of Mus musculus with 4 samples.

Results

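The 10 genes described here encode 7 cyclins and 3 cyclin-dependent kinases (CDKs), and were taken by their symbols from a table of 18200 genes measured in polysomal RNA of mouse cells. All 10 had an entry, and all 10 passed the filter on low values (a mean of at least 1 FPKM, fragments scaled to gene length and library depth, over the 4 libraries), as did 8750 genes in all. The 2 libraries labelled IFIT1 knockdown come from cells that received a short hairpin RNA (shRNA) against Ifit1, and the 2 labelled scrambled from cells that received a scrambled control. The cells of both groups are given as ADSCs, commonly short for adipose-derived stem cells, of wild-type genotype, and each of the 2 labelled batches holds 1 library of either group. The labels do not name the strain, sex and age of the donor animals, the delivery of the shRNA, or whether replicates were separate cultures. The p-values therefore speak of the spread between 4 libraries, which can be technical.

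Cyclins are the regulatory partners that switch CDKs on, and their levels swing through the cell cycle. D-type cyclins bind Cdk4 and Cdk6 in G1 and start the phosphorylation of the retinoblastoma protein, cyclin E joins Cdk2 at the entry into S phase, cyclin A2 serves Cdk2 and Cdk1 through S and G2 phase, and B-type cyclins with Cdk1 drive mitosis. Polysomal RNA is messenger RNA carrying several ribosomes, so its level follows both the amount of a message and its loading with ribosomes, which cannot be told apart without total RNA. In such bulk samples, fewer cells in a phase of the cycle and less RNA per cell cannot be told apart either.

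Ifit1, the gene named as the target, had 13.9 and 14.8 FPKM in the libraries labelled knockdown and 1.93 and 1.91 FPKM in those labelled scrambled. The difference runs against the labels, and higher or lower always refers to the label, not to a measured loss of Ifit1. Whole fragments could be recovered from the FPKM of 15872 genes and summed to 29011473 and 26466726 in the libraries labelled knockdown and 24448952 and 29825482 in those labelled scrambled. The summed level of 4 Y-linked genes was 0.974 and 1.37 FPKM in the libraries labelled knockdown and 0.0151 and 0.00262 FPKM in those labelled scrambled. This difference runs along the labels, so whatever lies behind it cannot be told apart from the labelled treatment. Its part in the results below was not tested.

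The labelled cell type was checked by its markers. Of 11 mesenchymal stromal markers, 7 passed the filter, and those 7 were higher in the libraries labelled knockdown, as were 27.4% of all tested genes. Eng, with a mean under 1 FPKM in the libraries labelled scrambled, passed the filter only through those labelled knockdown. The summed level of the 11 was 101.4 and 100.5 FPKM in the libraries labelled knockdown and 44.5 and 43.9 FPKM in those labelled scrambled. Thy1 had 31.0 and 30.3 FPKM in the libraries labelled knockdown and 3.71 and 3.69 FPKM in those labelled scrambled, and Ly6a averaged 43.7 FPKM against 22.4 FPKM, Eng 2.37 against 0.940 FPKM and Cd44 3.98 against 2.58 FPKM. Nt5e, Pdgfra, Pdgfrb and Alcam, named after their values were seen, did not pass the filter. Nt5e averaged 0.0116 FPKM in the libraries labelled knockdown and 0.0245 FPKM in those labelled scrambled, both near 0. Pdgfra averaged 0.119 against 0.00586 FPKM, Pdgfrb 0.850 against 0.826 FPKM and Alcam 0.115 against 0.161 FPKM. Of 7 epithelial and mesothelial markers, 4 passed the filter, and they did not differ in 1 direction. Of these, Krt8 and Krt18 passed the filter only through the libraries labelled knockdown, with means under 1 FPKM in those labelled scrambled. Krt8 averaged 2.55 FPKM in the libraries labelled knockdown and 0.279 FPKM in those labelled scrambled and Krt18 2.89 against 0.470 FPKM. In contrast, Krt19 averaged 91.8 against 163.4 FPKM. Msln, which passed the filter but not the test described below, averaged 2.00 against 1.95 FPKM. Krt19 makes up most of their sum of 98.9 and 99.7 FPKM in the libraries labelled knockdown and 168.1 and 164.2 FPKM in those labelled scrambled. Adipocyte markers, with nearly all of the level from Fabp4, summed to 1.47 and 1.48 FPKM against 2.62 and 2.51 FPKM. Leukocyte markers summed to at most 0.399 FPKM and endothelial markers to at most 0.0191 FPKM in any library. The part of these differences in the results below was not tested.

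The 4 libraries do not group the same way for every gene. On log2(FPKM + 1), 6518 of the 8750 tested genes were closest within their labelled groups, and 2223 (25.4%) were closest in crossed pairs, knockdown 1 with scrambled 2 and knockdown 2 with scrambled 1. Only 9 genes were closest within the labelled batches. Among the genes closest in crossed pairs, the median difference was 0.30 between the libraries labelled knockdown and 0.30 between those labelled scrambled, but 0.02 between knockdown 2 and scrambled 1 and 0.03 between knockdown 1 and scrambled 2. This count was made after the data were seen, and its cause was not tested. Among the genes closest within their groups, the libraries labelled knockdown lay a median of 0.456 counting SDs apart and those labelled scrambled 0.318, where counting of fragments alone gives a median of 0.674, although choosing genes by closeness favours small values. Among the crossed genes these medians were 5.03 and 4.87. If the recovered fragment numbers are the true ones, replicates of the genes closest within their groups were by the median closer than counting alone gives. Every SE and adjusted p given here rests on the spread between these replicates. Of the 10 genes described here, 9 were closest within their labelled groups and 1, Cdk1, in crossed pairs.

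D-type cyclins and the cyclins of S phase and mitosis differed in opposite directions. All 3 D-type cyclins and Cdk4 were higher in the libraries labelled knockdown, while Ccna2, Ccnb1, Ccnb2, Ccne1 and Cdk6 were lower, and Cdk1 did not pass the test. By limma with Benjamini-Hochberg adjustment over all 8750 tested genes and a threshold of 0.05, 4 of the 10 were higher and 5 lower. After each library was centred on its median, 4 were higher and 2, Ccna2 and Ccnb1, were lower. With that centring, 2833 of all 8750 tested genes were higher and 3040 lower. Without it the background is also high: 27.4% of all tested genes were higher and 41.2% lower, 68.7% together, so a call by itself sets none of the 10 apart. The groups did not overlap for 4 of the 10 on the higher side and 5 on the lower side, as for 30.1% and 44.4% of all tested genes, 74.5% together. The median difference of the 10 was -0.15 on the log2 scale, against -0.02 over all tested genes.

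**Figure D1:**
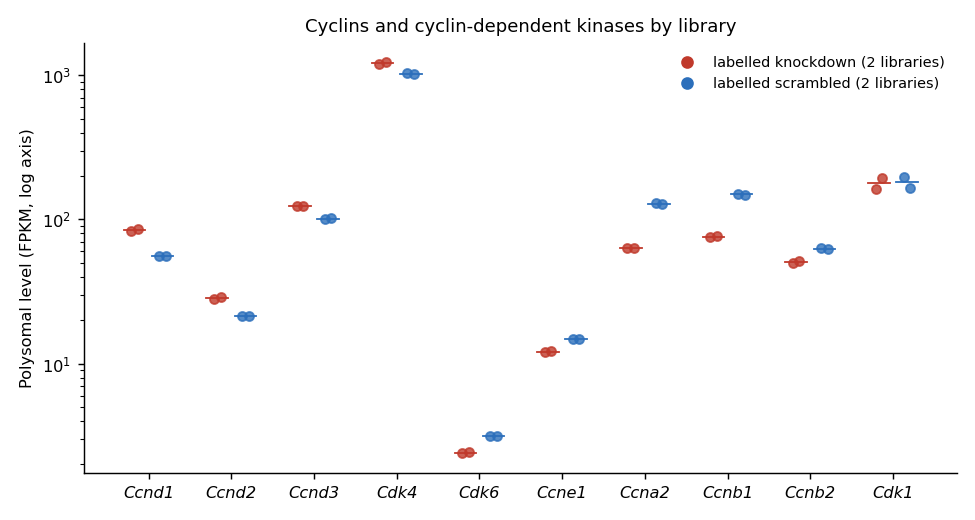
Polysomal level of each gene in FPKM on a log axis, with 1 point per library and a line at the group mean, for libraries labelled knockdown (red, left) and scrambled (blue, right). Points of both groups are apart for every gene but Cdk1, and levels run from 2.39 FPKM for Cdk6 to 1229 FPKM for Cdk4.

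Levels, in FPKM scaled to length, spanned a wide range. This scaling does not make genes fully comparable: across 8530 genes the log2 difference between groups fell with transcript length (Spearman rho -0.39). The orders and the ratios between genes therefore describe these FPKM only. In the libraries labelled knockdown the order by mean was Cdk4, Cdk1, Ccnd3, Ccnd1, Ccnb1, Ccna2, Ccnb2, Ccnd2, Ccne1 and Cdk6. In those labelled scrambled it was Cdk4, Cdk1, Ccnb1, Ccna2, Ccnd3, Ccnb2, Ccnd1, Ccnd2, Ccne1 and Cdk6. Ccnd1 was thus in place 4 in the libraries labelled knockdown and in place 7 in those labelled scrambled, whereas Ccnb1 was in place 5 and in place 3. No neighbours in either order overlapped between libraries of the same group, the closest pair being Ccnd1 above Ccnb1 by a ratio of 1.12 in the libraries labelled knockdown and Ccnb2 above Ccnd1 by 1.12 in those labelled scrambled.

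Ccnd1, cyclin D1, which growth factor signals induce in G1, had 83.4 and 86.3 FPKM in the libraries labelled knockdown and 55.9 FPKM in each library labelled scrambled. Both libraries labelled knockdown lay above both others, and Ccnd1 had the largest increase of the 10. Its level was 51.8% higher, with a log2 difference of 0.59 (SE 0.02, limma adjusted p = 0.00031). Within batch 1 it was 0.57 and within batch 2 it was 0.62.

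Ccnd2, cyclin D2, had 28.1 and 28.9 FPKM in the libraries labelled knockdown, against 21.5 FPKM in each library labelled scrambled, again without overlap. It was 32.9% higher (log2 0.39, SE 0.02, limma adjusted p = 0.00063). Ccnd3, cyclin D3 and the most abundant D-type cyclin in all 4 libraries, had 124.4 and 124.7 FPKM in the libraries labelled knockdown and 101.1 and 101.5 FPKM in those labelled scrambled. Libraries of the same group differed by less than 0.01 on the log2 scale, and the groups by 0.30 (SE 0.02, limma adjusted p = 0.00059), an increase of 22.9%.

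The shares of the 3 D-type cyclins in their sum differed between the groups. Ccnd1 made up 35.4% and 36.0% of their summed FPKM in the libraries labelled knockdown and 31.3% in each library labelled scrambled. The share of Ccnd3 was 52.7% and 52.0% in the libraries labelled knockdown and 56.7% and 56.8% in those labelled scrambled. Ccnd2 held 11.9% and 12.1% in the libraries labelled knockdown, close to the 12.0% in each library labelled scrambled. The size of the increases depends on the scaling. With the trend of the differences with transcript length taken out, Ccnd2 and Ccnd3 were at 0.81 and 0.52. After median-centring Ccnd3 was at 0.47, and after quantile normalization at 0.27, where Ccnd2 was at 0.48. FPKM of all genes summed to 701936 and 680137 in the libraries labelled knockdown and 598188 and 616504 in those labelled scrambled. Scaling to a common total was not tried, and would make these increases and that of Cdk4 smaller. The shares, and the ratios between genes given further on, are values of single libraries and were not tested.

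Cdk4, a catalytic partner of the D-type cyclins, had 1204 and 1229 FPKM in the libraries labelled knockdown and 1030 and 1022 FPKM in those labelled scrambled. It stood above 98.8% of tested genes by its mean level in the libraries labelled knockdown and above 98.7% in those labelled scrambled. The groups did not overlap, and the log2 difference was 0.25 (SE 0.02, limma adjusted p = 0.0020), an increase of 18.6%. After quantile normalization the difference was 0.08 and did not pass (limma adjusted p = 0.43), so the call rests on the scaling, while after median-centring it was 0.42. The summed D-type cyclins came to 0.195 of the summed Cdk4 and Cdk6 in both libraries labelled knockdown, and to 0.173 and 0.174 in those labelled scrambled.

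Cdk6, the other kinase of D-type cyclins, was the scarcest of the 10, at 2.39 and 2.45 FPKM in the libraries labelled knockdown and 3.15 and 3.14 FPKM in those labelled scrambled. It was 23.1% lower (log2 -0.28, SE 0.02, limma adjusted p = 0.00074), from 1140 and 1071 fragments in the libraries labelled knockdown and 1225 and 1485 in those labelled scrambled. The pair of kinases that share D-type cyclins thus differed in opposite directions, and Cdk4 exceeded Cdk6 by ratios of 504.2 and 502.3 in the libraries labelled knockdown against 327.5 and 325.6. Cdk6 has by far the longest transcript of the 10, at 11525 bases in GENCODE, and across 8530 genes the log2 difference fell with transcript length (Spearman rho -0.39). With that trend taken out, the difference of Cdk6 was 0.20 and passed in the other direction (limma adjusted p = 0.0019), and after centring each library on its median it was -0.10 (limma adjusted p = 0.083).

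Cdk4 is also the gene whose promoter, among those matched, held the most copies of an E-box, the motif CACGTG bound by Myc and other basic helix-loop-helix factors. RefSeq promoter sequences (GRCm38.p6) matched 7 of the 10 genes, all but Ccna2, Ccnd1 and Ccnd2. Both strands of the 250 bases before each start were searched for CACGTG, for CCAAT, for TTTGAA (the cell cycle homology region of G2 and mitosis genes) and for TTTNGCGC, a form of the E2F motif. The Cdk4 window held CACGTG 4 times, shown in capitals. At least 1 copy was in 6.02% of all 32851 promoter windows of that length, and how many held 4 was not counted. The window is chr10:127063285-127063534 on the plus strand.
Cdk4: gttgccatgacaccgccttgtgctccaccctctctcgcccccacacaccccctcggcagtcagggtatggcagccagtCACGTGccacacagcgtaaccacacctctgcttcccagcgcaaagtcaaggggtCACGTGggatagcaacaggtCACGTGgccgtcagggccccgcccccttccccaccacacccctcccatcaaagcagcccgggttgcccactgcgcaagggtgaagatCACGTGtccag
The other match to CACGTG among the 7 genes was a single copy in the Cdk6 window. These are matches of letters, not measured binding.

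Ccne1, cyclin E1, which activates Cdk2 for the start of DNA replication, had 12.0 and 12.2 FPKM in the libraries labelled knockdown and 14.9 and 14.8 FPKM in those labelled scrambled. It was 18.4% lower (log2 -0.27, SE 0.02, limma adjusted p = 0.0011), without overlap between groups. Its counting error, 0.04 on the log2 scale, was above the fitted SE, and with the SE not allowed below counting error the adjusted p of limma's difference was 0.013. After median-centring the difference was -0.10 and did not pass (limma adjusted p = 0.11). Cdk2, its kinase, which like Ccne2 was named after its values were seen, was lower as well, at 25.1 and 25.4 FPKM in the libraries labelled knockdown and 37.0 and 36.3 FPKM in those labelled scrambled (log2 -0.52, SE 0.02, limma adjusted p = 0.00026). Its relative Ccne2 had 10.9 and 17.7 FPKM in the libraries labelled knockdown and 17.6 and 11.3 FPKM in those labelled scrambled, a crossed pattern that did not pass (limma adjusted p = 0.99).

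Ccna2, cyclin A2, had the largest difference of the 10. It had 62.9 and 63.6 FPKM in the libraries labelled knockdown and 130.3 and 127.5 FPKM in those labelled scrambled. Its mean was 63.2 ± 0.506 FPKM in the libraries labelled knockdown and 128.9 ± 1.99 FPKM in those labelled scrambled (SD, n = 2 each), 50.9% lower. The log2 difference was -1.02 (SE 0.02, limma adjusted p = 0.00016), and 3.75% of tested genes had a lower value. Within batch 1 it was -1.04 and within batch 2 it was -0.99.

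Ccnb1, cyclin B1, the main mitotic cyclin, had 75.5 and 76.3 FPKM in the libraries labelled knockdown and 150.8 and 146.9 FPKM in those labelled scrambled. It fell in nearly the same measure as Ccna2, by 49.0% (log2 -0.96, SE 0.02, limma adjusted p = 0.00016). The ratio of Ccna2 to Ccnb1 was 0.833 and 0.834 in the libraries labelled knockdown, against 0.864 and 0.868. Reads of Ccnb1 can be shared with its pseudogene Ccnb1-ps, named after its values were seen, which had 1.22 FPKM in each library labelled knockdown and 2.07 and 2.02 FPKM in those labelled scrambled. The sources used here do not say to which of them a shared read was counted.

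Ccnb2, cyclin B2, a second mitotic cyclin, fell less. It had 50.2 and 51.3 FPKM in the libraries labelled knockdown and 62.9 and 62.5 FPKM in those labelled scrambled, 19.2% lower (log2 -0.30, SE 0.02, limma adjusted p = 0.0011). The ratio of Ccnb1 to Ccnb2 was 1.51 and 1.49 in the libraries labelled knockdown and 2.40 and 2.35 in those labelled scrambled, so the B-type cyclins differed unequally. After median-centring Ccnb2 was at -0.13 and did not pass (limma adjusted p = 0.067).

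Cdk1, the kinase of the mitotic cyclins, had 161.8 and 195.0 FPKM in the libraries labelled knockdown and 197.1 and 165.7 FPKM in those labelled scrambled. The groups overlapped: knockdown 2 stood beside scrambled 1, and knockdown 1 beside scrambled 2. The log2 difference was -0.02 (SE 0.15, 95% interval -0.49 to 0.44, limma adjusted p = 0.99). It was negative within batch 1 (-0.28) and positive within batch 2 (0.23). Cdk1 had 13878 and 15348 fragments in the libraries labelled knockdown and 13799 and 14090 in those labelled scrambled. These give a counting error of 0.01 on the log2 scale, against the fitted SE of 0.15. Libraries of the same group differed by 0.27 in those labelled knockdown and 0.25 in those labelled scrambled, against at most 0.05 for any of the other 9 genes, as the plot of deviations by library shows. The summed Ccna2, Ccnb1 and Ccnb2 came to 1.17 and 0.980 of Cdk1 in the libraries labelled knockdown and to 1.75 and 2.03 in those labelled scrambled.

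**Figure D2:**
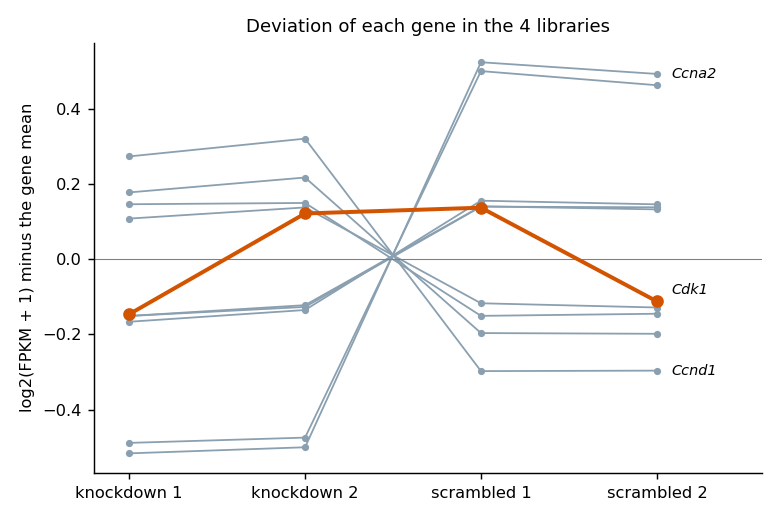
Deviation of log2(FPKM + 1) from the gene's own mean in each of the 4 libraries, 1 line per gene, with Cdk1 in orange. The other 9 lines are nearly level within each group, while Cdk1 is low in knockdown 1 and scrambled 2 and high in knockdown 2 and scrambled 1.

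Promoter windows of Ccnb1, Ccnb2 and Cdk1 are shown because these genes act together in mitosis and their values differed unequally. All are from RefSeq (GRCm38.p6), read 5′ to 3′ on the minus strand, and cover chr13:100786487-100786736 for Ccnb1, chr9:70421555-70421804 for Ccnb2 and chr10:69352913-69353162 for Cdk1. Capitals mark the matches to the CCAAT box on either strand, to the cell cycle homology region and to the E2F motif.
Ccnb1: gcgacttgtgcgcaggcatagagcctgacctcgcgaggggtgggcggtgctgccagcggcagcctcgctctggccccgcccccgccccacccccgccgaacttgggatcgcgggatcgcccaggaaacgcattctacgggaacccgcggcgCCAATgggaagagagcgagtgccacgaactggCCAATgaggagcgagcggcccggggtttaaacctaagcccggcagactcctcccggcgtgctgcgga
Ccnb2: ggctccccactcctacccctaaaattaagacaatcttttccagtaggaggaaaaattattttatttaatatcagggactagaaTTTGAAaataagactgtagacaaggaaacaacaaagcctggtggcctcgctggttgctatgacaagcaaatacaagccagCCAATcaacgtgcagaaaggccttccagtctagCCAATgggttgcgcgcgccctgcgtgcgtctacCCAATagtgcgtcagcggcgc
Cdk1: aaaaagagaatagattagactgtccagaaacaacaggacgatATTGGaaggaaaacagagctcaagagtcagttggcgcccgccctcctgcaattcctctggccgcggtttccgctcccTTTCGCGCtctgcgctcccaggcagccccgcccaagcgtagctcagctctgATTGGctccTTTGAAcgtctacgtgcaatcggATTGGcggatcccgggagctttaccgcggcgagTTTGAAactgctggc
CCAAT, the box bound by NF-Y, occurred 2 times in the Ccnb1 window and 3 times in each of the Ccnb2 and Cdk1 windows. At least 1 copy was in 33.8% of all windows, and windows with several copies were not counted. TTTGAA occurred once in the Ccnb2 window, and 2 times in the Cdk1 window, where the nearer copy lies 15 to 10 bases before the start; 16.0% of all windows held it. TTTNGCGC was found in the Cdk1 window alone of the 7 genes, and in 1.13% of all windows. The Ccnd3 windows, for 2 annotated starts, held 1 CCAAT between them, and the Ccne1 window held none of the 4 motifs. No match says only that these letters are not in this window.

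**Figure D3:**
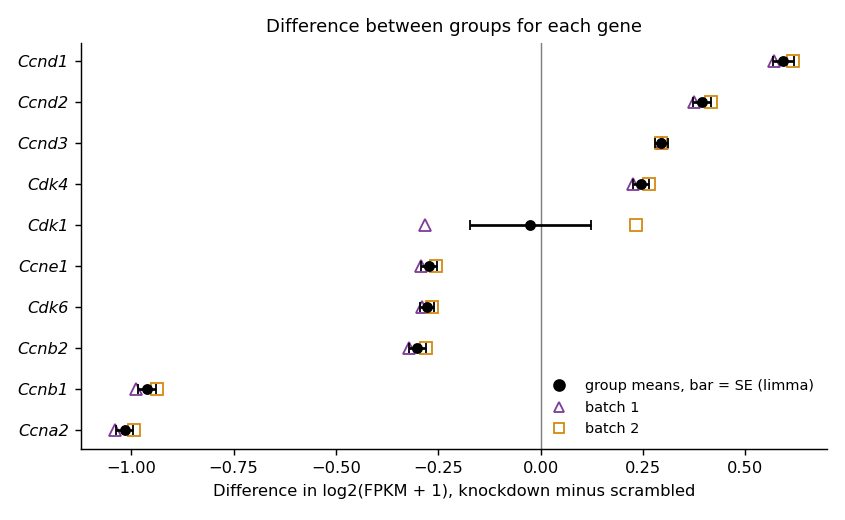
Difference in log2(FPKM + 1), knockdown minus scrambled, for each gene, with the difference of group means and its limma SE (black) and the differences within batch 1 (triangles) and batch 2 (squares). In 9 genes the batches lie on the same side of 0, and for Cdk1 they are at -0.28 and 0.23.

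The make-up of cyclin mRNA on polysomes differed between the groups. The 7 cyclins added up to 436.5 and 443.3 FPKM in the libraries labelled knockdown and 537.4 and 530.7 FPKM in those labelled scrambled. D-type cyclins held 54.1% of that sum in each library labelled knockdown, and 33.2% and 33.7% in those labelled scrambled. The ratio of Ccna2, Ccnb1 and Ccnb2 to the D-type cyclins was 0.799 and 0.797 in the libraries labelled knockdown, against 1.93 and 1.88. Cyclins of S phase and mitosis thus outweighed D-type cyclins in the libraries labelled scrambled, and D-type cyclins outweighed them in those labelled knockdown.

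**Figure D4:**
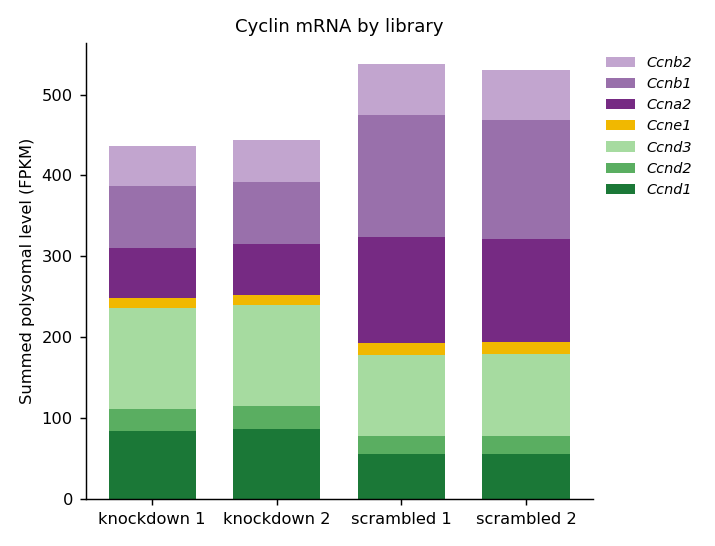
Summed FPKM of the 7 cyclins in each library, stacked by gene, with D-type cyclins in green, Ccne1 in yellow, and Ccna2, Ccnb1 and Ccnb2 in purple. D-type cyclins reach 236.0 and 239.9 FPKM in the libraries labelled knockdown and 178.5 and 178.9 FPKM in those labelled scrambled, while the purple part is 188.6 and 191.2 FPKM against 344.1 and 337.0 FPKM.

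The genes most like Cdk1 and Ccnd1 over the 4 libraries were taken from 4017 protein-coding genes with a mean of at least 10 FPKM, by the root mean square distance of log2(FPKM + 1) centred on each gene's mean. Pnrc2, Spryd4 and Zwint were nearest to Cdk1, at distances of 0.00081, 0.0018 and 0.0018. Zwint, a kinetochore protein, had 109.0 and 131.8 FPKM in the libraries labelled knockdown and 132.9 and 111.6 FPKM in those labelled scrambled, crossed like Cdk1. Tuba4a, Nop53 and Shc1 were nearest to Ccnd1, at distances of 0.0025, 0.0032 and 0.0036. With 4 libraries, such closeness describes these values only.

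Genes that act on the cyclins and CDKs were described by lists chosen with earlier results of these data known. CDK inhibitors, which bind and block the kinases, were mostly higher in the libraries labelled knockdown: 5 of 7 rose, 1 fell and 1 did not pass, with a median log2 difference of 0.62 (27.4% of all tested genes were higher and 41.2% lower). Cdkn1c (p57) had 27.8 and 29.2 FPKM in the libraries labelled knockdown and 7.45 FPKM in each library labelled scrambled (log2 1.80, SE 0.03, limma adjusted p = 0.00016). Cdkn1a (p21) was 2.00-fold, Cdkn2d (p19) 1.63-fold and Cdkn2a, which encodes both p16 and p19Arf, 1.54-fold higher. The member that fell was Cdkn2c (p18), and Cdkn1b (p27) had 12.3 and 15.9 FPKM in the libraries labelled knockdown and 17.7 and 13.7 FPKM in those labelled scrambled, both named after their values were seen.

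Of 18 tested genes of the retinoblastoma and E2F axis, 1 rose, 14 fell and 3 did not pass, with a median log2 difference of -0.31, beside 27.4% higher and 41.2% lower among all tested genes. The number that fell was 9 after median-centring, where 3040 of all 8750 tested genes were lower. Foxm1, the factor that activates mitotic genes, had 10.02 and 10.29 FPKM in the libraries labelled knockdown and 20.6 and 20.9 FPKM in those labelled scrambled (log2 -0.96, SE 0.02, limma adjusted p = 0.00016). Log2 differences were -0.92 and -0.84 for E2f7 and E2f8, repressors of the E2F family, and -0.87 for Rbl2, a relative of the retinoblastoma protein. Rbl2 averaged 0.905 FPKM in the libraries labelled knockdown and 2.48 FPKM in those labelled scrambled, so it passed the filter only through the latter. The same held for Lin52, named after its values were seen, at 0.830 against 1.22 FPKM. Rb1 itself averaged 0.63 against 0.78 FPKM and E2f3 0.47 against 0.93 FPKM. Both of these, named after their values were seen, did not pass the filter and were not tested. E2f1, singled out with its values in view, was the gene that rose, at 47.0 and 44.1 FPKM in the libraries labelled knockdown and 17.9 and 17.1 FPKM in those labelled scrambled.

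Among 13 regulators of CDK phosphorylation and partner proteins, 1 rose, 9 fell and 3 missed the threshold, with a median of -0.40, where 27.4% of all tested genes were higher and 41.2% lower. Wee1, which inhibits Cdk1 by phosphorylation, fell by 0.65 on the log2 scale. Bora, a cofactor in the activation of Plk1, fell by 0.98, the chaperone Hsp90ab1 by 1.17 and Gtse1 by 0.70. Cdkn3, a phosphatase of CDKs named after its values were seen, was the higher one (log2 0.28, SE 0.05, limma adjusted p = 0.015) and did not pass with batch as a block, nor without knockdown 1, knockdown 2 or scrambled 1.

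Among 27 tested genes of cyclin degradation, 6 rose, 17 fell and 4 did not pass, with a median of -0.34, while all tested genes were higher in 27.4% and lower in 41.2%. Skp2, the F-box protein of the ligase that removes p27, had 6.54 and 6.60 FPKM in the libraries labelled knockdown and 13.6 and 13.3 FPKM in those labelled scrambled. Subunits of the anaphase-promoting complex, which marks cyclins A2 and B for destruction, differed in both directions: Anapc1 fell by 1.27 and Cdc16 by 0.86 on the log2 scale, whereas Cdc26 rose by 0.78.

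Of the other cyclins and CDKs outside transcription, 4 of 14 tested genes rose, 5 fell and 5 did not pass, with a median of -0.02, and 27.4% of all tested genes were higher and 41.2% lower. After median-centring 3 of the 14 were lower, beside 3040 of all 8750 tested genes. Ccng1, a p53 target, was 2.25-fold, Ccng2 2.12-fold and Cdk20 1.77-fold higher, as was Cdk5 (log2 0.56), named after its values were seen. The lower ones were Cdk17 (log2 -0.50), Cdk2, and, named after their values were seen, Cdk14, Cdk18 and Ccnf. Of the cyclins and CDKs of transcription, 1 of 15 rose, 8 fell and 6 did not pass, with a median of -0.34, beside the same shares of all tested genes. Ccnc, of the Mediator kinase module, rose by 0.72 on the log2 scale, while its kinase Cdk8 fell by 0.68, Ccnk by 0.75 and Cdk11b by 1.18. Here 4 members were higher after median-centring, beside 2833 of all 8750 tested genes.

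Among 23 tested proliferation markers, 1 rose, 13 fell and 9 missed the threshold, with a median of -0.49, against 27.4% higher and 41.2% lower among all tested genes. Mki67 and Cenpf, of 25 listed and named after their values were seen, did not pass the filter on low values. Mki67 averaged 0.840 FPKM in the libraries labelled knockdown and 0.854 FPKM in those labelled scrambled, and Cenpf 0.662 against 0.528 FPKM. Of the 23, 9 (39.1%) were closest in crossed pairs of libraries, beside 25.4% of all tested genes. Tpx2, Rrm2, Aurkb and Mcm4 had the smallest p, with log2 differences of -1.45, -1.34, -1.17 and -1.07, and Pcna, named after its values were seen, was higher (log2 0.40). In the deposited table's own KEGG annotation of the cell cycle, 125 genes besides the 10 were tested, of which 17 were higher, 76 lower and 32 not past, with a median of -0.38, beside 41.2% lower among all tested genes.

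**Figure D5:**
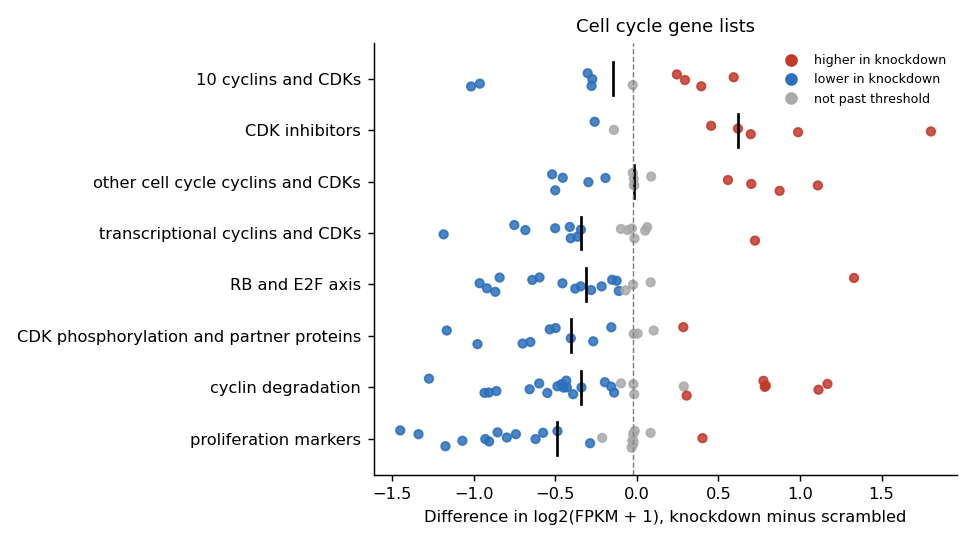
Difference in log2(FPKM + 1), knockdown minus scrambled, for each tested gene of the lists, coloured by the limma call, with a black line at the list's median and a dashed line at the median of all tested genes (-0.02). CDK inhibitors have a median of 0.62, and the lists from transcriptional cyclins and CDKs down to proliferation markers have medians from -0.49 to -0.31.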

How the data were processed

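Polysomal RNA of 4 libraries was analysed, 2 labelled knockdown and 2 labelled scrambled. Per the labels' protocols, RNA was taken up in Trizol, messenger RNA was captured on beads, fragmented by heat and copied to cDNA. The values are FPKM computed by the authors, and the deposited table is named as FPKM in the sample labels. Builds GRCm38, mm10 and GRCm39 are listed in the submitters' processing notes without a role. Aligner, counting tool and strandedness: not given in the sources used here. FPKM summed to 701936 and 680137 in the libraries labelled knockdown and 598188 and 616504 in those labelled scrambled, so there is no common total.

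Whole fragments were solved from the ratios of FPKM between libraries (relative tolerance 3e-08, numbers up to 60000), which succeeded for 99.3% of tested genes. They can be a true number divided by a common factor, and cover counting error only. Genes with a mean of at least 1 FPKM were tested on log2(FPKM + 1) in R 4.3.3 by limma 3.58.1 (lmFit, then eBayes with a mean trend, two-sided, Benjamini-Hochberg over 8750 genes, threshold 0.05, 3.06 degrees of freedom per gene). The log2(FPKM + 1) scale understates changes of low genes. Scripts were tested on simulated data. Over all tested genes with recovered fragments, replicates lay a median of 0.667 counting SDs apart in the libraries labelled knockdown and 0.535 in those labelled scrambled, where counting alone gives 0.674.

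The labels put same-numbered libraries in 1 batch, and batch is a block in an alternative. Replicate 1 minus replicate 2 of one group, set against the same in the other group, had Pearson's r = -0.83 across all 8750 tested genes. These include the 2223 genes closest in crossed pairs, and the cause of this value was not tested. The alternatives were a pseudocount of 0.1, no filter, median-centring, quantile normalization, the block, each library left out, and the SE not allowed below counting error. The crossed block and the removal of the length trend (lowess, longest GENCODE M21 transcript) were added after the data were seen. The genes named are the 10, the 4 with the smallest p of each list, the 3 most like Cdk1 and Ccnd1, Ifit1, Actb and Gapdh, and others are marked in the text. Members and lists were chosen with earlier results of these data known. Other work used Python 3.11.15, numpy 2.4.6, pandas 2.3.3, scipy 1.17.1 and matplotlib 3.10.9.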

Additional observations from a re-analysis of the deposited data

Results flagged for a closer look

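Cdk1 was singled out because its libraries moved in opposite directions in the batches given by the labels: the log2 difference, knockdown minus scrambled, was -0.28 in batch 1 and 0.23 in batch 2. Like Cdk1, 25.4% of all tested genes were closest in crossed pairs, so this layout does not set Cdk1 apart from them. With 1 library of each group per batch, the difference between batches was not tested. No group has 4 libraries, so no group could be screened for outlying libraries.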

How the results depend on the processing

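Of 120 values of the 10 genes under the alternatives, 111 kept their direction and their side of the threshold. Under either block and under the floor on the SE the differences stay as they are, so no direction could change there. The crossed block was itself set after the data were seen. Median-centring left 2 of the 5 lower genes past the threshold, Ccna2 and Ccnb1, as it moved the median of all tested genes to 0.15 from -0.02. It gave Ccnb2, Ccne1 and Cdk6 values of -0.13, -0.10 and -0.10 (limma adjusted p = 0.067, 0.11 and 0.083). Cdk4 did not pass after quantile normalization. Cdk1, which passed in no setting, turned to 0.15 after median-centring and 0.25 with the length trend removed, and ranged from -0.16 to 0.11 with each library left out. It was at 0.11 without knockdown 1, 0.10 without scrambled 1, -0.16 without knockdown 2 and -0.15 without scrambled 2. Cdk6 turned to 0.20 with the length trend removed. Without the filter, 3819 genes were higher of 18200 tested, against 2401 of 8750, since more genes were tested.

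With batch as a block, 4 of the 10 genes were higher and 5 lower, as without it, and of all tested genes 2205 were higher and 3417 lower. The block changed no call of the 10, and among the lists it moved no count by over 1.5 times except that Cdkn3 did not pass. With the crossed pairing as a block, 2962 genes were higher and 4282 lower. Of the lists, after median-centring the retinoblastoma and E2F axis had 2 higher and 9 lower, transcriptional cyclins and CDKs 4 higher, other cyclins and CDKs 3 lower, CDK inhibitors 0 lower and proliferation markers 2 higher. Of all 8750 tested genes, 2833 were higher and 3040 lower after median-centring. Every other change of a list count by over 1.5 times was by at most 3 genes. With the length trend removed Ccnb2 was at -0.45. The counting error of Ccne1, Cdk6, Ccnb2 and Ccnd3 exceeds their fitted SE. With the SE not allowed below counting error all 4 passed, with limma adjusted p of 0.013, 0.0052, 0.0028 and 0.0018.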

Other observations

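The crossed pattern of Cdk1 was also found in other genes of the cell cycle and in a common reference gene, all named after their values were seen apart from Gapdh. Mcm5, a subunit of the replicative helicase, had 146.7 and 206.5 FPKM in the libraries labelled knockdown and 210.7 and 149.0 FPKM in those labelled scrambled. Top2a, a topoisomerase of dividing cells, had 20.5 and 35.4 FPKM in the libraries labelled knockdown and 37.0 and 20.5 FPKM in those labelled scrambled. Cks1b, a small protein that binds CDKs, ran the other way, with 595.5 and 379.7 FPKM in the libraries labelled knockdown and 383.0 and 586.7 FPKM in those labelled scrambled. Gapdh, a glycolytic enzyme often used for scaling, had 160.6 and 267.9 FPKM in the libraries labelled knockdown and 274.9 and 162.9 FPKM in those labelled scrambled. Actb, the cytoplasmic actin used for the same purpose, had 1809 and 1842 FPKM in the libraries labelled knockdown and 2838 and 2809 FPKM in those labelled scrambled (log2 -0.63, SE 0.02, limma adjusted p = 0.00020). A ratio of a cyclin to either gene would therefore differ from the values given here. By limma 0 of the 2223 genes closest in crossed pairs passed the test and 0 had an unadjusted p under 0.05, whereas 6009 of the 6518 closest within their groups passed. The wide spread within groups that defines the crossed genes works against a call.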
